A study of Mus musculus with 28 samples.

Results

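Controlled cortical impact (CCI) in Rbm5 knockout mice was described from 14 of the 28 arrays of a study of Rbm5 in brain: the 7 titled as knockout with CCI (KO CCI) and the 7 titled as knockout with sham (KO sham). All 65956 transcript clusters other than control rows entered the comparison. KO CCI mice carried the genotype labelled KO for Rbm5, had a craniotomy over the left parietal cortex and were struck at 6 m/s to a depth of 1.2 mm. KO sham mice had the same genotype and received anaesthesia alone, so the effects of craniotomy and of impact cannot be told apart. Wild type (WT) mice with CCI and with sham, 7 of each, served to compare the injury changes between genotypes. The mice were 12 to 15 weeks old. KO CCI held 4 females and 3 males, and KO sham held 3 females and 4 males. At 48 h the mice were perfused with cold buffered saline, cortical tissue was frozen and its total RNA was hybridised to the MTA 1.0 array, which reads mRNAs, long noncoding RNAs and small RNAs. The labels give no allele, strain background or cell type for the knockout. Values are log2 signal as deposited, on which a difference of 1 is a 2-fold difference. In bulk tissue, fewer cells of a type and less RNA per cell cannot be told apart.

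Controlled cortical impact drives a piston onto the exposed brain. It kills neurons at the contact site and tears vessels, and over the following days local astrocytes and microglia become reactive and blood leukocytes enter. Rbm5 encodes an RNA-binding protein of the spliceosome that regulates alternative splicing of death genes such as Casp2, Fas and Cflar and can promote apoptosis in cultured cells.

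Rbm5 itself was not called different between injured and sham knockout cortex. Its log2 signal was 9.71, 9.74 and 9.80 in KO CCI and 9.66, 9.78 and 9.84 in KO sham (lowest, median and highest of 7 arrays, the order used throughout). The groups overlapped, with a change of -0.01 (SE 0.04, limma adjusted p = 0.894). All 14 knockout arrays lay below all 14 wild type arrays for this gene, whose lowest wild type value was 10.59, which fits the labels. Probes outside a deleted stretch may still bind RNA, and the level left over does not speak to the protein. Rbm6, a related RNA-binding protein whose gene lies beside Rbm5 on chromosome 9, fell by 0.13 (SE 0.04, adjusted p = 0.0125), a call absent after quantile normalization and in a fit of the knockout arrays alone.

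The injury changed a large share of the transcriptome. Of 65956 transcript clusters, 11017 (16.7%) were called at a limma p under 0.05 after Benjamini-Hochberg adjustment over all of them (adjusted p below), of which 5560 (8.43%) were higher and 5457 (8.27%) lower in KO CCI. Centring each array on its median turned this split into 4021 higher and 7576 lower, although it moved the median change over all transcript clusters only to -0.03, against 0.01 as deposited. Of the 911 named genes changed at least 1.5-fold, 909 kept their call and sign after centring, whereas of the other 5612 called named genes 4627 did. Among 30727 named genes, each represented by its brightest transcript cluster, 3821 (12.4%) were higher and 2702 (8.79%) lower, and the median change was 0.02. Rises reached further than falls: 219 named genes were at least 2-fold higher and 14 at least 2-fold lower, and 49 were at least 4-fold higher whereas none was 4-fold lower. For 1785 genes (5.81%) all 7 KO CCI arrays lay above all 7 KO sham arrays, and for 1182 genes (3.85%) all 7 lay below. Both groups appear in 2 runs of title numbers, 1 to 24 with 4 arrays of each and 25 to 42 with 3 of each. All 233 genes changed at least 2-fold kept their sign in both runs and in both sexes. Of the 233, 229 were called in the first run alone and 210 in the second run alone. The 233 were chosen on their change over these same arrays, so agreement between runs or sexes is not an independent check. Of all 6523 called named genes, 6517 kept their sign in both runs and 6522 in both sexes.

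**Figure D1:**
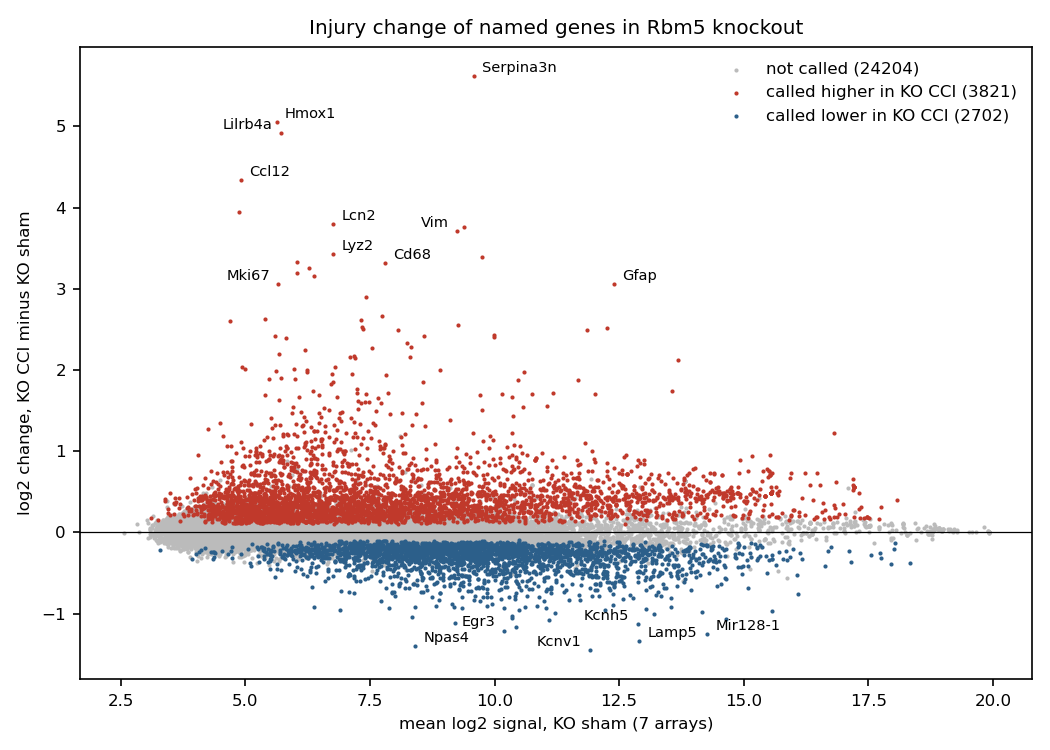
Each point is 1 of 30727 named genes, with its mean log2 signal in KO sham on the horizontal axis and its log2 change, KO CCI minus KO sham, on the vertical axis. Coloured points were called, and the labelled genes are among the largest changes, from 5.62 for Serpina3n to -1.45 for Kcnv1.

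The largest rises belonged to astrocyte, phagocyte and haem-handling genes. Serpina3n, a secreted protease inhibitor made by reactive astrocytes, had log2 signals of 14.77, 15.03 and 15.82 in KO CCI and 8.16, 9.39 and 11.69 in KO sham. The groups did not overlap, and the rise of 5.62 (SE 0.34, 49.3-fold, adjusted p = 5.98e-12) was the largest of any named gene. It measured 5.51 in the first run of title numbers and 5.88 in the second. Other Serpina3 genes are close in sequence and may share probes with it. Hmox1, the inducible haem oxygenase that opens the haem ring, had 9.78, 10.66 and 11.56 in KO CCI and 5.39, 5.66 and 5.83 in KO sham. It rose 33.2-fold (a log2 change with SE 0.23, adjusted p = 1.04e-14) with no overlap, by 5.22 in the first run and 4.79 in the second. Lilrb4a, an inhibitory receptor of myeloid cells, had 9.89, 10.66 and 11.19 in KO CCI and 5.51, 5.73 and 5.83 in KO sham. Every injured array lay far above every sham array, a 30.3-fold rise (adjusted p = 1.19e-16). The sham signals of Hmox1 and Lilrb4a lay at or below the array medians of 5.79 to 5.90, so their folds rest on a sham level that was not shown to exceed background. The others of the 15 largest rises, apart from Lilr4b, which may share probes with its paralogue Lilrb4a, are described with their groups below.

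Astrocytes surround a cortical wound, thicken their processes and secrete protease inhibitors, iron-binding proteins and matrix. Of 20 genes listed as rising in most kinds of reactive astrocyte, 19 rose and none fell, with a median change of 1.49 against 0.02 for all named genes. Gfap, the main astrocyte intermediate filament, had 14.96, 15.48 and 16.03 in KO CCI and 10.86, 12.67 and 13.86 in KO sham. It rose 8.32-fold without overlap (SE 0.31, adjusted p = 5.16e-08). Vim, a filament protein that reactive astrocytes and many other cells use, had 12.15, 13.08 and 13.45 in KO CCI and 8.52, 9.48 and 9.82 in KO sham. That is a rise of 13.1-fold (adjusted p = 6.52e-13) with a clear gap between the groups. Lcn2, which binds bacterial iron carriers and is secreted by reactive astrocytes, rose 13.9-fold (adjusted p = 2.26e-14). Steap4, a metalloreductase, rose 4.59-fold and the hyaluronan receptor Cd44 4.04-fold. Hsbp1 was the listed gene not called, at 0.17, and whether it belongs on such a list was not examined. Of 9 genes linked to the astrocyte state that follows inflammatory stimulation, 6 rose, led by Gbp2 at 1.10 and Srgn at 1.08. The Gbp2 change leaned on KO CCI array 23, at 9.66 against 6.78 to 7.29 on the other injured arrays. Among 13 genes linked to the state that follows ischaemia, 11 rose. Tgm1, a protein-crosslinking transglutaminase of that list, had 8.91, 9.26 and 9.77 in KO CCI and 5.84, 6.01 and 6.24 in KO sham. It rose 9.13-fold (adjusted p = 4.24e-13), and Tm4sf1, a membrane protein of migrating cells, rose 4.51-fold. Genes of resting astrocytes split: of 16, 5 rose and 3 fell, and after centring each array on its median 2 rose and 6 fell. The bicarbonate transporter gene Slc4a4 rose by 0.52, while the main glutamate transporter gene Slc1a2 fell by 0.36 and Sparcl1, which encodes a secreted synapse-promoting protein, fell by 0.38. The water channel gene Aqp4, at 0.24 (adjusted p = 0.249), was not called.

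Cytokines of the interleukin 6 family signal through gp130 receptors, JAK kinases and the transcription factor STAT3. Of 19 JAK, STAT and SOCS genes 5 rose, 1 fell and 13 were not called, with a median of 0.02, and after centring each array on its median 3 rose and 4 fell. Pias1, an inhibitor of STAT activity, was the 1 that fell, by 0.32. The receptor gene Osmr had 8.89, 9.34 and 9.80 in KO CCI and 6.996, 7.20 and 7.43 in KO sham. It rose 4.42-fold without overlap (adjusted p = 1.34e-12). Stat3 rose 2.51-fold (adjusted p = 3.76e-13), the shared receptor subunit gene Il6st rose by 0.37 and the feedback inhibitor Socs3 by 0.33. Of the ligands, Clcf1 rose by 0.46 and Lif by 0.26, while Il6 at 0.18 and Osm at 0.09 were not called. The STAT site letters TTCNNNGAA, which read the same in form on both strands, were present in 2 of 19 promoters of the pan-reactive genes (10.53%), against 8.106% of 18196 promoters of named genes. Promoters here are the RefSeq windows of GRCm38.p6 from 250 bases before to 50 bases after the gene start. Of 1937 promoters of genes called higher, 7.589% held the letters. The promoters of Gfap (chr11:102897151-102897450, minus strand) and Tgm1 (chr14:55713443-55713742, minus strand) are shown. Both were picked because they hold the letters and their genes are among the 17 named genes that rose at least 8-fold. Tgm1 belongs to the ischaemia list and not to the pan-reactive list. Capitals mark the match, which lies at -2 to 7 from the start in Gfap and at -173 to -165 and -64 to -56 in Tgm1.
Gfap: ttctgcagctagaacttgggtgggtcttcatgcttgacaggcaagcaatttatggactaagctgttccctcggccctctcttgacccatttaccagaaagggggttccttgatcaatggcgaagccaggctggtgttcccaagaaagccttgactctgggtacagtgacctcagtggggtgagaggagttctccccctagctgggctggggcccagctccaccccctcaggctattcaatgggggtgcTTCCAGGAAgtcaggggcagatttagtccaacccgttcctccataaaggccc
Tgm1: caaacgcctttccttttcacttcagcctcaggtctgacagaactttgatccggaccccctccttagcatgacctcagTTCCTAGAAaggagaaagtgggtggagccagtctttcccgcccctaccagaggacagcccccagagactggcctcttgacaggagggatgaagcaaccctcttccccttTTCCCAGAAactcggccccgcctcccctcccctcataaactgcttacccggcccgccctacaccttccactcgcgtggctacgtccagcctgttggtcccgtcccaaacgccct

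Microglia are the resident phagocytes of the brain, and after injury they share the tissue with macrophages derived from blood monocytes. Genes of the phagocytic state rose almost throughout: 19 of 20 were higher, with a median of 0.97. Cd68, a glycoprotein of phagocyte lysosomes, had 10.47, 11.20 and 11.87 in KO CCI and 7.57, 7.73 and 8.06 in KO sham. It rose 9.99-fold without overlap (SE 0.23, adjusted p = 5.80e-11). Ly86, a partner of the Toll-like receptor homologue Cd180, rose 10.5-fold and the scavenger receptor gene Msr1 5.34-fold. Trem2, a lipid-sensing receptor of microglia, rose by 0.77 and its adaptor gene Tyrobp by 1.18. Apoe, which encodes a lipid carrier made by both astrocytes and microglia, was the member not called, at -0.11 (adjusted p = 0.426). The AP-1 site letters TGANTCA, searched on both strands, were present in 6 of 16 promoters of the phagocytic list (37.5%), against 7.524% of promoters of named genes. They were also present in 6 of 21 promoters of interferon-induced genes (28.57%) and 3 of 19 of the pan-reactive genes (15.79%), and in none of 23 of mitosis genes. These shares were not tested. Of 13 genes of resting microglia 6 rose and 1 fell, with a median of 0.26. Fcrls, an Fc receptor-like gene of microglia, rose 7.44-fold, Cx3cr1, the fractalkine receptor gene, rose by 1.07, and the colony-stimulating factor receptor gene Csf1r rose by 0.78. P2ry12 at 0.13 and Tmem119 at 0.12 were not called, and Siglech fell by 0.26 (adjusted p = 0.0493), a call lost when any of 10 single arrays was left out.

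Genes of cells that enter from blood divided by lineage. Of 16 genes of monocytes and recruited macrophages, 13 rose. Lyz2, the lysozyme gene of myeloid cells, had 9.02, 9.97 and 11.67 in KO CCI and 6.24, 6.78 and 7.27 in KO sham. It rose 10.8-fold (adjusted p = 1.06e-08) with no overlap. Arg1, the arginase of wound macrophages, rose 2.65-fold, Chil3 2.55-fold and the monocyte receptor gene Ccr2 by 0.54. Of 16 neutrophil genes, 8 rose. S100a8, a calcium-binding alarmin of neutrophils and monocytes, had 6.53, 7.41 and 7.62 in KO CCI and 4.44, 4.66 and 4.90 in KO sham. It rose 6.05-fold and its partner S100a9 2.58-fold. The granule genes Mpo at 0.04, Elane at 0.04 and Ltf at 0.04, made by neutrophil precursors in marrow, were not called. None of 13 lymphocyte and natural killer genes was called (limma, median 0.05, 0 at an unadjusted p under 0.05). Cd3e, a T cell receptor component, was at 0.05, and all of these genes had sham signals at or below the array medians.

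Receptors and secreted signals of innate immunity rose in many families. Of 23 Fc, Trem and inhibitory receptor genes, 18 rose, among them Fcer1g, the common Fc receptor gamma chain gene, 4.09-fold. Of 21 Toll-like and pattern recognition receptor genes, 15 rose, led by Tlr13, a sensor of bacterial ribosomal RNA, 4.12-fold. Complement genes rose in 10 of 16. C3ar1, the receptor for the C3a fragment, had 7.39, 8.19 and 8.39 in KO CCI and 4.90, 5.45 and 5.72 in KO sham. It rose 6.20-fold without overlap. C1qb, a subunit of the initiating C1q complex, rose 5.88-fold, and C4b, the next component, 5.78-fold. Cfb, of the alternative pathway, was at 0.11 and not called. Chemokine ligand genes changed more unevenly: 11 of 24 rose and 1 fell. Ccl12, which draws monocytes through Ccr2, had 8.75, 9.09 and 9.997 in KO CCI and 4.62, 4.87 and 5.37 in KO sham. It rose 20.2-fold (adjusted p = 1.09e-14), from a sham level below the array medians. Ccl3 rose 2.79-fold and Ccl2 by 0.84, while Cx3cl1, the neuronal ligand of Cx3cr1, fell by 0.52. The classical cytokine genes moved less: Il1b rose by 0.57 and Tnf by 0.28, and Ifng was at 0.06 and not called. Of the interleukin, interferon and TNF ligand genes 9 of 24 rose and 1 fell, and of the cytokine receptor genes 18 of 24 rose and 2 fell. Il4ra, a receptor chain for interleukins of type 2 immunity, rose 2.77-fold.

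Enzymes and adhesion molecules of phagocytes rose with these receptors. Of 8 genes of the phagocyte NADPH oxidase, which makes superoxide, 7 rose. Rac2, the small GTPase of the complex in blood cells, rose by 1.04, Cyba, its membrane subunit gene, by 1.01 and Cybb, the catalytic subunit gene, by 0.58. Of 14 genes of prostaglandin and leukotriene synthesis and sensing, 7 rose and 1 fell. Alox5ap, which hands arachidonic acid to 5-lipoxygenase, had 7.81, 8.11 and 8.69 in KO CCI and 6.05, 6.16 and 6.45 in KO sham. It rose 4.003-fold without overlap (adjusted p = 5.50e-10). Hpgds, a prostaglandin D synthase of blood cells, rose by 1.09 and the phospholipase gene Pla2g4a by 1.03, while the inducible cyclooxygenase gene Ptgs2, at 0.28, was not called. Of 20 integrin genes 10 rose, among them Itgam and Itgb2, the pair that forms the myeloid complement receptor, by 1.72 and 1.25. Of 14 chemokine receptor genes 5 rose, including Ccr1 by 0.81 and Cxcr4 by 0.68, and Cxcr3, of activated T cells, was at 0.01 and not called. NF-kB genes rose in 5 of 17, with the inhibitor gene Nfkbia at 0.49 and the subunit gene Rela at 0.54.

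Interferon-induced genes rose in 22 of 26, with a median of 0.60, and 1 injured array stood apart. Ifitm3, which restricts virus entry and is also high in phagocytes, had 9.996, 10.57 and 11.33 in KO CCI and 7.52, 7.99 and 8.50 in KO sham. It rose 5.63-fold with no overlap. Gbp2, a guanylate-binding protein gene, had 6.78, 6.91 and 9.66 in KO CCI and 6.03, 6.21 and 6.46 in KO sham. Its highest value came from KO CCI array 23. The mean of the whole list was 7.26 on that array, against 6.53 to 6.83 on the other 6 KO CCI arrays and 6.00 to 6.23 on the KO sham arrays. Without that array all of the other injured means still lay above all sham means. The STAT site letters TTCNNNGAA were present in 9 of 21 promoters of the list (42.86%), against 8.106% of promoters of named genes. Of 12 MHC class I genes, 9 rose, and B2m, the shared light chain gene, rose by 0.73 (adjusted p = 0.00188). Array 23 was again the highest for their mean, at 7.72, against 7.25 to 7.45 on the other injured arrays. Of 8 genes of MHC class II presentation, 5 rose. The large rises were in the processing enzymes, Ifi30 9.57-fold and Ctss 3.26-fold, whereas the class II chain gene H2-Aa rose by 0.33 and the master regulator Ciita, at 0.05, was not called.

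Genes for digesting and storing cell debris rose together. Of 21 cathepsin and lysosome genes, 17 rose, with a median of 0.95. Ctsc, which activates serine proteases of myeloid granules, rose 5.69-fold and Ctsz 4.01-fold. Ctsb, a cathepsin gene of many cell types, had 16.17, 16.64 and 16.79 in KO CCI and 15.38, 15.56 and 15.65 in KO sham. It rose 1.94-fold without overlap. Tfeb, a transcription factor of lysosome genes, was at 0.09 and not called. Of 18 lipid handling genes, 13 rose and 1 fell. Plin2, the coat protein gene of lipid droplets, had 8.76, 9.27 and 9.61 in KO CCI and 6.94, 7.16 and 7.20 in KO sham. It rose 4.47-fold with no overlap. Fabp7, the brain fatty acid-binding protein gene of astrocytes and progenitors, rose 5.32-fold, Ch25h, which makes 25-hydroxycholesterol, rose 3.22-fold, and Pltp, a phospholipid transfer protein gene, fell by 0.80, a call lost when any of 9 single arrays was left out.

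Bleeding frees haem and iron, which cells detoxify by breaking haem and binding iron. Of 22 genes of that list, 11 rose and 2 fell. Besides Hmox1, Trf, the transferrin gene, which oligodendrocytes express strongly, had 15.05, 15.78 and 16.45 in KO CCI and 13.35, 13.68 and 14.06 in KO sham. It rose 4.34-fold without overlap, and the ferritin light chain gene Ftl1 rose 3.92-fold. The ferritin heavy chain gene Fth1 rose by 0.16, a call lost after quantile normalization, and the transferrin receptor gene Tfrc fell by 0.49. Blvra, which acts on the product of haem breakdown, was at -0.01 and not called. The 2 red blood cell genes measured, Alas2 at 0.03 and Slc4a1 at 0.05, were not called. Of 7 metallothionein and zinc genes 4 rose and 1 fell. The metal-binding genes Mt2, Mt1 and Mt3 rose by 1.23, 0.75 and 0.47. Antioxidant genes rose in 14 of 21. Gpx1, a glutathione peroxidase gene, rose 2.93-fold and Nfe2l2, the regulator of many such genes, rose by 0.84, while the mitochondrial superoxide dismutase gene Sod2 was at -0.06 and not called.

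**Figure D2:**
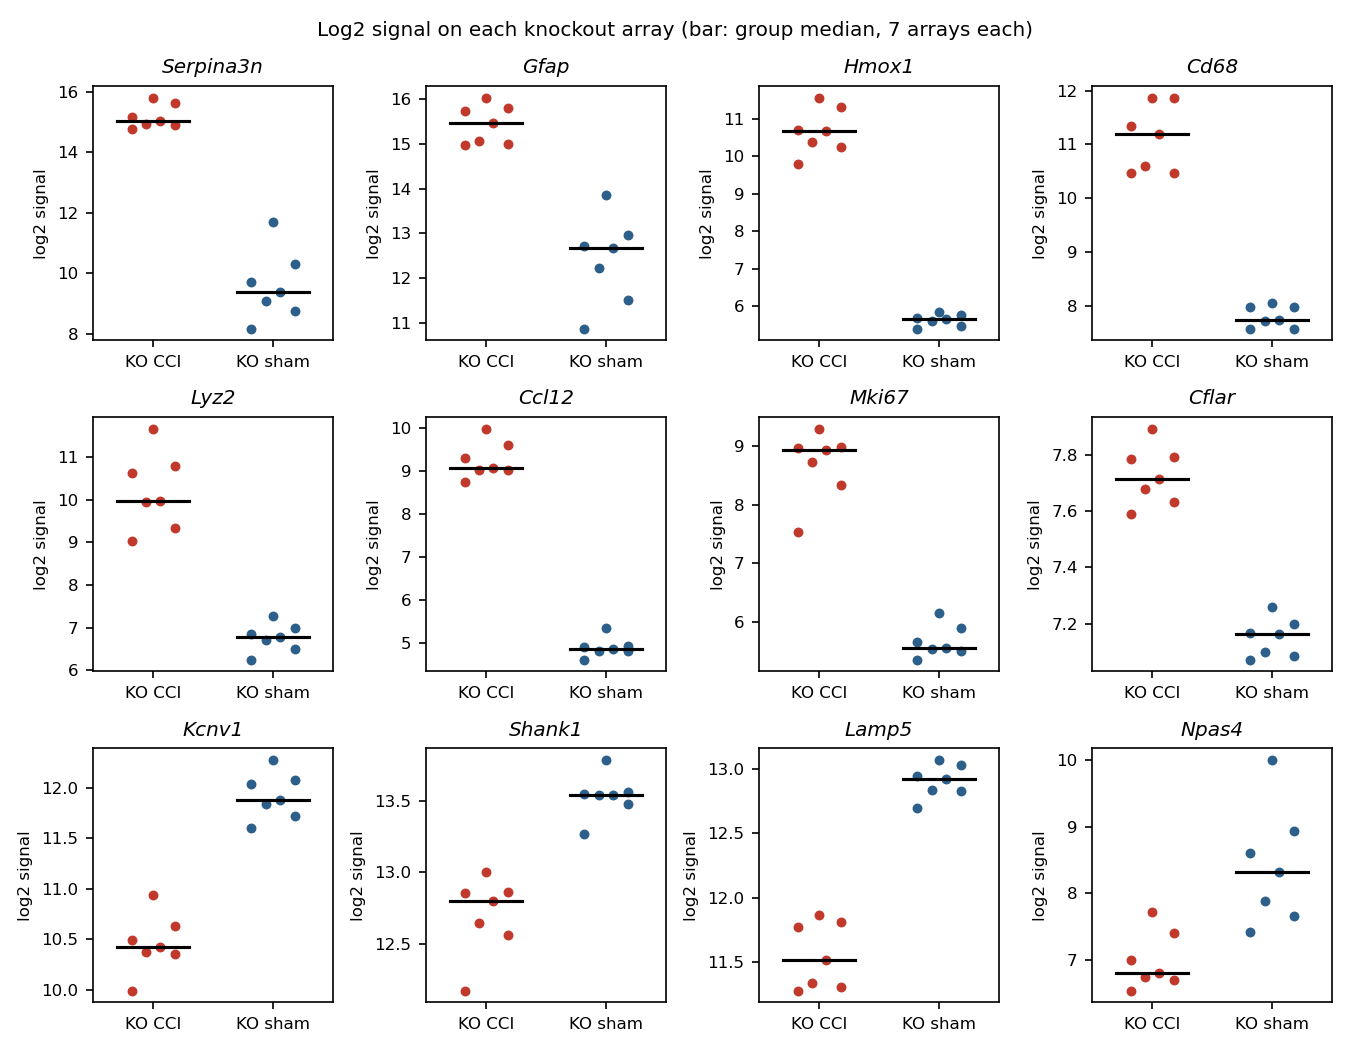
Log2 signal of 12 genes on each array, with the 7 KO CCI arrays left and the 7 KO sham arrays right in each panel; bars mark the group medians. The 2 groups are separate in every panel except that of Npas4.

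Genes of dividing cells rose at 48 h. Of 27 mitosis genes 25 rose and none fell, with a median of 0.71, and of 25 DNA replication genes 24 rose, with a median of 0.39. Mki67, a protein of mitotic chromosomes, had 7.54, 8.94 and 9.30 in KO CCI and 5.35, 5.54 and 6.14 in KO sham. It rose 8.36-fold (adjusted p = 1.52e-09) with no overlap. Top2a, which untangles DNA before division, rose 3.71-fold, and the replicative helicase gene Mcm3 rose 2.24-fold. Cdk1, the kinase that starts mitosis, rose by 0.44 and its cyclin gene Ccnb2 by 0.87. The list mean of the mitosis genes was 6.01 on KO CCI array 23, the array with the highest interferon mean, against 6.20 to 6.60 on the other injured arrays and 5.48 to 5.64 on the sham arrays. Among 18 genes of G1 cyclins, their kinases and inhibitors, 9 rose, and the kinase gene Cdk4 rose by 0.57. Among inhibitors, Cdkn1a rose by 0.78 and Cdkn1b was at -0.08 and not called. The CHR letters TTTGAA, an element of late cell cycle promoters, occurred in 18 of 23 promoters of mitosis genes (78.26%), against 16.36% of 18196 promoters of named genes, both strands searched. CCAAT letters occurred in 20 of the 23 (86.96%), against 38.42%. For the 21 promoters of DNA replication genes the shares were 14.29% and 57.14%. These and all other promoter shares given here describe the lists and were not tested. The 3 promoters shown carry both letters, with CHR and CCAAT matches on either strand in capitals, and belong to Mki67 (chr7:135716330-135716629), Cdk1 (chr10:69352863-69353162) and Ccnb2 (chr9:70421505-70421804), all on the minus strand.
Mki67: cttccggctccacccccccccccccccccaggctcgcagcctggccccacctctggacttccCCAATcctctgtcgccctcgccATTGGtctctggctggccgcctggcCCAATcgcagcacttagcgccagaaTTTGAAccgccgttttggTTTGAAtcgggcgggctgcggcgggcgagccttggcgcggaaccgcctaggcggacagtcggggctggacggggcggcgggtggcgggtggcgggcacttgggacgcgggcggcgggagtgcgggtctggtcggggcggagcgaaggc
Cdk1: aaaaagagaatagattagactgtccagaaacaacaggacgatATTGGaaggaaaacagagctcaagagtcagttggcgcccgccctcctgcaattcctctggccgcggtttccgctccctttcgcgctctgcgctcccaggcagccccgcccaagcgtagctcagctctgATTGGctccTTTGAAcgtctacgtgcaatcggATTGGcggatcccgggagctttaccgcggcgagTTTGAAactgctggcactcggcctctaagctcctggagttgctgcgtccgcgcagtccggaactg
Ccnb2: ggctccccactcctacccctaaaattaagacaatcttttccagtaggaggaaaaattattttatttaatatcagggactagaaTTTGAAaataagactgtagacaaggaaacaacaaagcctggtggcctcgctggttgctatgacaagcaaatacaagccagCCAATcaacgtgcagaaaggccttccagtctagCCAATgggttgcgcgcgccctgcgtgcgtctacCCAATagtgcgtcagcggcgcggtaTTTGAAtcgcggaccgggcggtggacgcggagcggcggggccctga

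Death genes named with Rbm5 did not move together. Casp2 had 7.95, 8.002 and 8.15 in KO CCI and 8.01, 8.05 and 8.10 in KO sham. The groups overlapped and the change of -0.02 (SE 0.04, adjusted p = 0.812) was not called. Cflar, whose product blocks caspase 8 activation, had 7.59, 7.71 and 7.89 in KO CCI and 7.07, 7.16 and 7.26 in KO sham. It rose by 0.58 (adjusted p = 7.97e-09) without overlap. Fas, the death receptor gene, rose by 0.30 (adjusted p = 0.0379), but this call was lost when any of 9 arrays was left out. These are whole-gene signals and do not read splice forms. Rbm10 is not given because its row lists several genes. Among 20 caspase and Bcl2 family genes, 10 rose and 1 fell. Casp8, the initiator caspase below death receptors, had 8.17, 8.57 and 8.93 in KO CCI and 6.89, 7.09 and 7.30 in KO sham. It rose 2.66-fold, and the inflammatory caspase gene Casp1 rose by 0.85. The survival gene Mcl1 rose by 0.57, and Casp9, the initiator of the mitochondrial route, was at -0.02 and not called. Of 19 p53 targets, 7 rose and 2 fell; the BH3-only genes Bbc3 at 0.12 and Pmaip1 at -0.03 were not called. Of 15 genes of death receptors, necroptosis and pyroptosis 9 rose, among them the necroptosis effector Mlkl by 0.32.

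Matrix, adhesion and cytoskeleton genes followed. Tgfbi, a matrix protein gene induced by TGF-beta, had 8.97, 9.46 and 10.14 in KO CCI and 6.06, 6.41 and 6.58 in KO sham. It rose 8.89-fold without overlap. Lgals1, a galectin gene, rose 6.34-fold and Thbs1, which encodes a thrombospondin, 3.74-fold. Of 30 matrix genes 16 rose and 2 fell, the fall of Bcan, a proteoglycan of perineuronal matrix, being 0.60. Collagen genes moved little: 8 of 20 rose, none past 0.35, the change of Col6a1. A2m, which encodes a broad protease inhibitor, had 8.60, 9.46 and 10.03 in KO CCI and 5.52, 5.99 and 6.76 in KO sham. It rose 10.1-fold with no overlap (adjusted p = 1.62e-09). Of 25 genes of metalloproteinases, their Timp inhibitors and the plasmin system, 16 rose and none fell. Timp1, a metalloproteinase inhibitor gene, rose 4.02-fold and the protease gene Adamts1 2.39-fold. Of 27 actin, annexin and S100 genes, 24 rose, with a median of 0.65. Msn, which links actin to the membrane, had 10.79, 11.08 and 11.37 in KO CCI and 8.42, 8.60 and 8.76 in KO sham. It rose 5.36-fold with no overlap. Of 14 intermediate filament genes 6 rose and 3 fell, and after centring each array on its median 5 rose and 5 fell. Nes, the filament gene of progenitors and reactive astrocytes, rose by 1.33, and the neurofilament light chain gene Nefl fell by 0.55. Of 16 serpin genes 6 rose and 2 fell. Serping1, the C1 inhibitor gene, rose by 0.76, and Serpini1, which encodes the neuronal serpin, fell by 0.43. Growth factor genes went both ways, 5 of 25 higher and 8 lower. Hbegf, an EGF receptor ligand gene, rose by 0.87, and Igf2, which the meninges make, fell by 0.78. Among 24 transcription factor genes linked to injury, 15 rose and 1 fell. The rises were led by Jun at 1.22, Cebpd at 0.94 and Atf3 at 0.89.

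Vessel, meninges and oligodendrocyte genes showed mixed changes. Of 26 endothelial genes 12 rose and 1 fell. The junction gene Cdh5 rose by 0.80 and the leukocyte-binding gene Selp by 0.72, and Slco1a4, a barrier transporter gene, fell by 0.48. The tight junction gene Cldn5 was at 0.27 and not called. Of 18 genes of meningeal fibroblasts, 3 rose and 7 fell. Ptgds, the brain prostaglandin D synthase, made by meninges and oligodendrocytes, had 12.50, 13.79 and 14.46 in KO CCI and 14.34, 14.52 and 15.18 in KO sham. It fell by 1.07 (adjusted p = 5.96e-04) although the ranges overlapped. Ogn fell by 1.11 (adjusted p = 0.0196), but was not called if KO CCI array 40 or 21 was left out, and Dcn, a proteoglycan gene of the same cells, rose by 1.21. How much meninges each sample held was not measured otherwise. Of 17 oligodendrocyte and myelin genes 3 rose and 1 fell, and the myelin gene Mbp, at -0.15, was not called. Of 15 oligodendrocyte precursor genes 4 rose and 2 fell. Olig2, a transcription factor of the lineage, rose by 0.67. Of 15 pericyte and smooth muscle genes 2 rose, 1 fell and 12 were not called, a split of calls that centring turned into 2 and 3. Of all named genes 12.4% were higher and 8.79% lower, so these counts were near those shares. The highest change of the list was 0.61. The pericyte gene Rgs5 fell by 0.33, a call lost when any of 8 single arrays was left out.

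**Figure D3:**
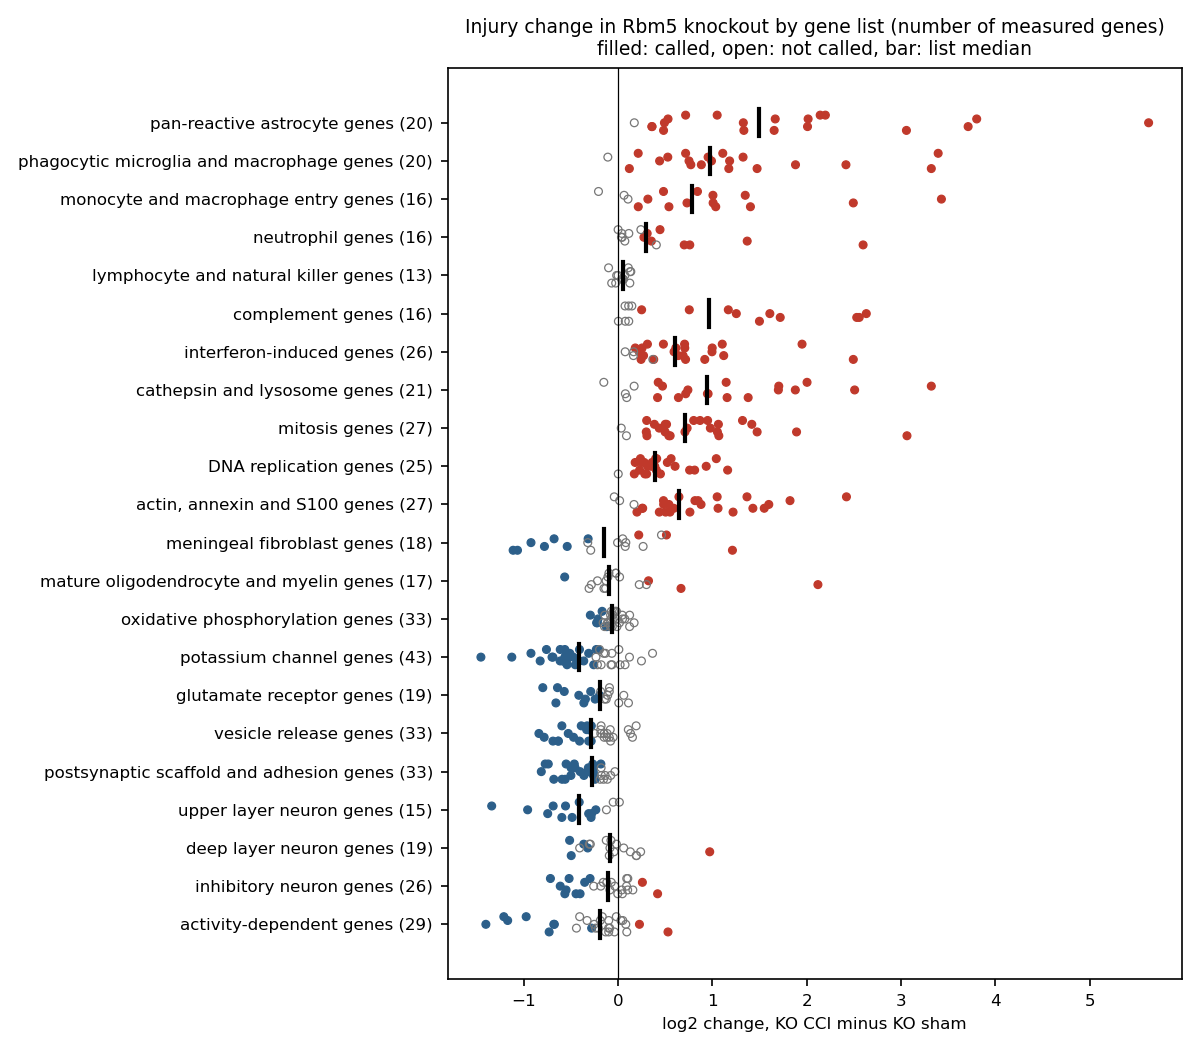
Each point is the log2 change, KO CCI minus KO sham, of 1 measured gene of the list named at left, with called genes filled and others open; the vertical bar is the list median. Lists of astrocyte, phagocyte and division genes lie to the right of 0, and lists of channels, receptors and synapse genes lie to its left.

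Ion channel genes fell in part. Of 43 potassium channel genes 28 fell and none rose, with a median of -0.41 against 0.02 for all named genes. Kcnv1, a silent subunit that modifies Kv2 channels and is enriched in cortex, had 9.99, 10.42 and 10.93 in KO CCI and 11.60, 11.87 and 12.28 in KO sham. It fell by 1.45 (SE 0.15, adjusted p = 3.46e-08) without overlap, the largest fall among annotated genes outside predicted models and small RNAs. It was -1.43 in the first run and -1.45 in the second. Kcnh5, of the ether-a-go-go family, had 11.55, 11.70 and 12.30 in KO CCI and 12.67, 12.83 and 13.11 in KO sham. It fell by 1.13, also with no overlap, and Kcnh7 fell by 0.92. Kcna1, a Kv1 channel gene of axons, was at -0.06 and not called. Of 29 sodium, calcium and HCN channel genes 16 fell, with a median of -0.21, the most in Scn1a, a sodium channel gene of inhibitory interneurons, by 0.81. Cacng5, an auxiliary subunit gene, was the 1 that rose, by 1.32.

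Receptor and synapse genes fell in part. The shares lower to set beside these counts are 8.79% of all named genes and 22.9% of rows in the brightest bin. Of 19 glutamate receptor genes 10 fell and none rose. Grm2, a presynaptic metabotropic receptor gene, fell by 0.80 and the NMDA receptor subunit gene Grin2a by 0.64, while the AMPA receptor subunit gene Gria1, at 0.11, was not called. Of 14 GABA and glycine receptor genes 7 fell, with Gabrb2 at -0.56. Of 27 receptor genes for monoamines, acetylcholine, opioids and cannabinoids 8 fell and 1 rose. The muscarinic receptor gene Chrm3 fell by 0.59 and the serotonin receptor gene Htr5a by 0.57, and the cannabinoid receptor gene Cnr1 rose by 0.26, a call lost when any of 11 single arrays was left out. Vesicle release genes fell in 17 of 33. Unc13a, which primes vesicles for fusion, had 10.35, 10.68 and 10.82 in KO CCI and 11.34, 11.51 and 11.63 in KO sham. It fell by 0.84 without overlap, while Snap25, a core fusion protein gene, at -0.08, was not called. Of 33 postsynaptic genes 25 fell and none rose, with a median of -0.28. Shank1, a scaffold of excitatory synapses, had 12.17, 12.80 and 13.001 in KO CCI and 13.27, 13.54 and 13.79 in KO sham. It fell by 0.81 with no overlap (adjusted p = 5.54e-04).

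Markers of neuron classes fell unevenly. Of 15 upper layer genes 12 fell, with a median of -0.41, and of 19 deep layer genes 4 fell and 1 rose, with a median of -0.09. The difference between these lists was not tested. Some injured arrays held more striatum signal, as given below. What that signal contributed to the deep layer or upper layer values was not tested either. Lamp5, of upper layer and neurogliaform neurons, had 11.28, 11.52 and 11.87 in KO CCI and 12.70, 12.92 and 13.07 in KO sham. It fell by 1.34 (adjusted p = 1.02e-09) without overlap. Rorb, a layer 4 transcription factor gene, had 10.85, 11.28 and 11.84 in KO CCI and 12.06, 12.15 and 12.55 in KO sham. It fell by 0.96, also with no overlap. In deep layers Tbr1 fell by 0.51 and Fezf2 by 0.50, whereas the highest change of that list was 0.97 and 14 of its 19 genes were not called. Inhibitory neuron genes fell in 9 and rose in 2 of 26, where 8.79% of all named genes and 22.9% of rows in the brightest bin were lower. Nos1, a nitric oxide synthase gene, rose by 0.42. Among those that fell were Gad1, a GABA-synthesising enzyme gene, by 0.45, and Npy by 0.55, while Gad2 was at -0.09 and not called. Of 42 genes of neuropeptides, their processing and their receptors 14 fell and none rose, with a median of -0.13. Vip, a peptide gene of inhibitory neurons, fell by 0.56 and Penk, the enkephalin gene, at 0.62, was not called. The peptide receptor gene Cckbr, for cholecystokinin, had 8.95, 9.38 and 9.47 in KO CCI and 10.03, 10.45 and 10.55 in KO sham. It fell by 1.05 with no overlap, and Npy1r, for neuropeptide Y, fell by 0.92. Pcsk1, which cuts peptide precursors, fell by 0.88. Among the other largest falls were Trhde, a peptidase gene, at -1.07, the axon guidance ligand gene Efna5 at -1.04, Prmt8, a brain arginine methyltransferase gene, at -0.995, Brinp1, a neuronal growth inhibitor gene, at -1.01, and Car10, a secreted neurexin ligand gene, at -0.98.

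Genes that follow neuronal firing fell in 8 of 29 and rose in 2. Of all named genes 8.79% were lower, and of rows in the brightest bin 22.9%, so this count does not set the list apart from bright rows. Npas4, a transcription factor induced by calcium entry, had 6.53, 6.80 and 7.72 in KO CCI and 7.41, 8.32 and 10.01 in KO sham. It fell by 1.40 (SE 0.28, adjusted p = 6.48e-04) with overlapping ranges. Egr3 had 8.41, 8.99 and 9.45 in KO CCI and 9.89, 10.14 and 10.84 in KO sham. It fell by 1.21 (adjusted p = 2.29e-06) without overlap, and Rgs4, which damps G protein signals, fell by 0.97. Nr4a1 fell by 1.17 (adjusted p = 0.0151), but not by call without KO sham array 12, which had the highest list mean, 8.69 against 8.06 to 8.42 on the other sham arrays and 7.80 to 8.12 on the injured arrays. Fos at -0.04 and Arc at -0.44 were not called. The CRE letters TGACGTCA, searched on both strands, were present in 2 of 21 promoters of the activity-dependent list (9.524%), against 2.297%. Clock genes fell in 11 and rose in 2 of 19. Bhlhe41, a repressor gene of the loop, rose by 0.41. Falls included Nr1d1, also a repressor of the clock loop, at -0.66 (adjusted p = 0.00187) and its target Arntl at -0.30, while Clock, at -0.05, was not called. Time of day at sampling was not given in the labels.

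Of 18 heat shock and unfolded protein genes 9 rose, with Hspb6, a small heat shock protein gene, at 1.04 and the endoplasmic reticulum chaperone gene Hspa5 at 0.49, while Atf4, at -0.13, was not called. Among genes of energy metabolism, 7 of 33 oxidative phosphorylation genes fell and none rose, the most in Cycs, the cytochrome c gene, by 0.29. Of all named genes 21.2% were called in either direction. Of 20 cholesterol synthesis genes 1 rose and 3 fell, with Hmgcs1, an early enzyme, at -0.45. Of 26 glycolysis and glucose genes 8 rose, among them Hk2 by 0.46, and 2 fell, among them the lactate dehydrogenase gene Ldhb by 0.33. Their median was 0.03, which became -0.01 after centring, and Gapdh, at 0.01, was not called. Ribosomal protein genes rose in 13 of 14, with a median of 0.39, led by Rplp0 at 0.82. RNA-binding and splicing factor genes, the family of Rbm5, rose in 10 and fell in 7 of 41, and after centring in 7 and 12. Rbm3, a cold-inducible RNA-binding protein gene, had 10.95, 11.30 and 11.69 in KO CCI and 9.997, 10.30 and 10.44 in KO sham. It rose 2.08-fold without overlap. Ptbp1, the splicing repressor of non-neuronal cells, rose by 0.73, and the neuronal splicing factor genes Nova1 and Rbfox3 fell by 0.70 and 0.52.

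Noncoding rows differed by class. Of all rows, 8.43% were higher and 8.27% lower. Rows of snRNA were higher in 377 of 926 (40.7%) and lower in 6, and rRNA rows were higher in 44 of 94. Only 24 of the 94 rRNA rows were distinct, of which 11 were higher. Pseudogene rows were higher in 865 of 4285 (20.2%) and lower in 102 (2.38%). Rows with no gene listed were higher in 1318 (3.97%) and lower in 2597 (7.82%) of 33206, so their share of falls was near that of all rows. Many of these rows can share sequence with one another or with coding genes, so their number is not a number of genes. Rows of lncRNA were higher in 80 (2.37%) and lower in 144 (4.27%) of 3374, both below the shares of all rows. Neat1, the RNA scaffold of paraspeckles, had 9.02, 9.31 and 9.62 in KO CCI and 7.65, 8.19 and 8.41 in KO sham. It rose 2.25-fold without overlap, and Malat1, its neighbour, at 0.04, was not called. Of 10 long noncoding RNAs chosen by name 1 rose, which was Neat1, and 4 fell. Among them Peg13, an imprinted transcript, fell by 0.49 and Miat, a neuronal one, by 0.31.

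The array reads miRNA hairpins and their primary transcripts and not mature miRNAs alone. Of 929 miRNA rows 25 (2.69%) were higher and 24 (2.58%) lower, below the 8.43% and 8.27% of all rows. The largest change was in Mir692-1, which had 11.93, 12.35 and 13.05 in KO CCI and 9.61, 10.08 and 10.39 in KO sham. It rose 5.37-fold without overlap (SE 0.20, adjusted p = 1.52e-09). A short row like this can also bind other transcripts that share its letters, which was not tested. The rise therefore does not show that this miRNA was induced. Mir703 rose by 0.76 (adjusted p = 8.76e-05) with overlapping ranges. Mir128-1 had 12.45, 13.05 and 13.38 in KO CCI and 14.08, 14.20 and 14.58 in KO sham. It fell by 1.26 (SE 0.12, adjusted p = 1.47e-08) without overlap. Mir128-2, on another chromosome, fell by 0.41 (adjusted p = 0.0124). Both genes give the same mature miR-128-3p, which is abundant in neurons, and the genes around them also fell, R3hdm1 around Mir128-1 by 0.76 and Arpp21 around Mir128-2 by 0.55. On chromosome 12, 44 rows between 109571990 and 109743236 of GRCm38.p6 belong to the imprinted miRNA cluster downstream of Meg3. Of these, 11 were lower and none higher, 43 had a negative change and the median was -0.27, whereas 13 of the other 885 rows (1.47%) were lower. This cluster was singled out after its values were seen. Brighter rows were called lower more often on this array, 22.9% of all rows in the brightest of 4 equal bins of mean signal and 8.50% of those in the next bin. The cluster had 24 rows in the brightest bin, of which 8 were lower, against 5 of the other 156 miRNA rows there. It had 14 rows in the next bin, of which 2 were lower, against 8 of 310. Among the called members are Mir154, Mir376b and Mir341. The call of Mir376b (-0.27, adjusted p = 0.0441) was lost when any of 10 single arrays was left out. The sequences of these 4 are from RefSeq, GRCm38.p6, with the seed, bases 2 to 8, in capitals.
mmu-miR-128-3p: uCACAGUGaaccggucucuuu
mmu-miR-154-5p: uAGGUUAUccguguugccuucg
mmu-miR-376b-3p: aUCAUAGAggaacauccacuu
mmu-miR-341-3p: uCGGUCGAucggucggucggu

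Cortical layer markers were present, with medians of 12.92 for Lamp5 and 12.15 for Rorb in KO sham against array medians of 5.79 to 5.90, but signal of neighbouring tissue was unequal. Of 14 striatum genes and 14 choroid plexus genes 0 and 1 were called (limma), and 1 and 3 had an unadjusted p under 0.05. The mean of the striatum genes was 9.14, 8.46 and 8.01 on KO CCI arrays 40, 22 and 23, against 6.99 to 7.78 on the other injured arrays and 7.15 to 7.95 on the sham arrays. Choroid plexus genes averaged 7.08 on KO CCI array 40, against 5.50 to 5.84 on the other injured arrays and 5.50 to 5.81 on the sham arrays. Of 10 hippocampus genes 1 rose and 2 fell, and of 12 thalamus genes 2 rose and 3 fell. Lists this small cannot be set apart from the 12.4% higher and 8.79% lower of all named genes. Drd2, a dopamine receptor gene of the striatum, was at 1.01 and Ttr, the choroid plexus transthyretin gene, at 1.19, both not called. For some lists the groups overlapped on those arrays: the mean of the myelin genes was 10.62, 10.42 and 10.14 on arrays 40, 22 and 23, against 9.99 to 10.54 on the sham arrays, and that of the meningeal genes was 7.05, 7.85 and 7.31, against 7.34 to 7.83. For others they did not. The potassium channel list mean was 9.59, 9.70 and 9.65 on arrays 40, 22 and 23 and 9.61 to 9.77 on the other injured arrays, below the 9.98 to 10.14 of the sham arrays. The mean of the pan-reactive astrocyte genes was 8.90, 8.99 and 9.02 on the same 3 arrays and 8.86 to 9.29 on the other injured arrays, above the 7.06 to 7.56 of the sham arrays.

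**Figure D4:**
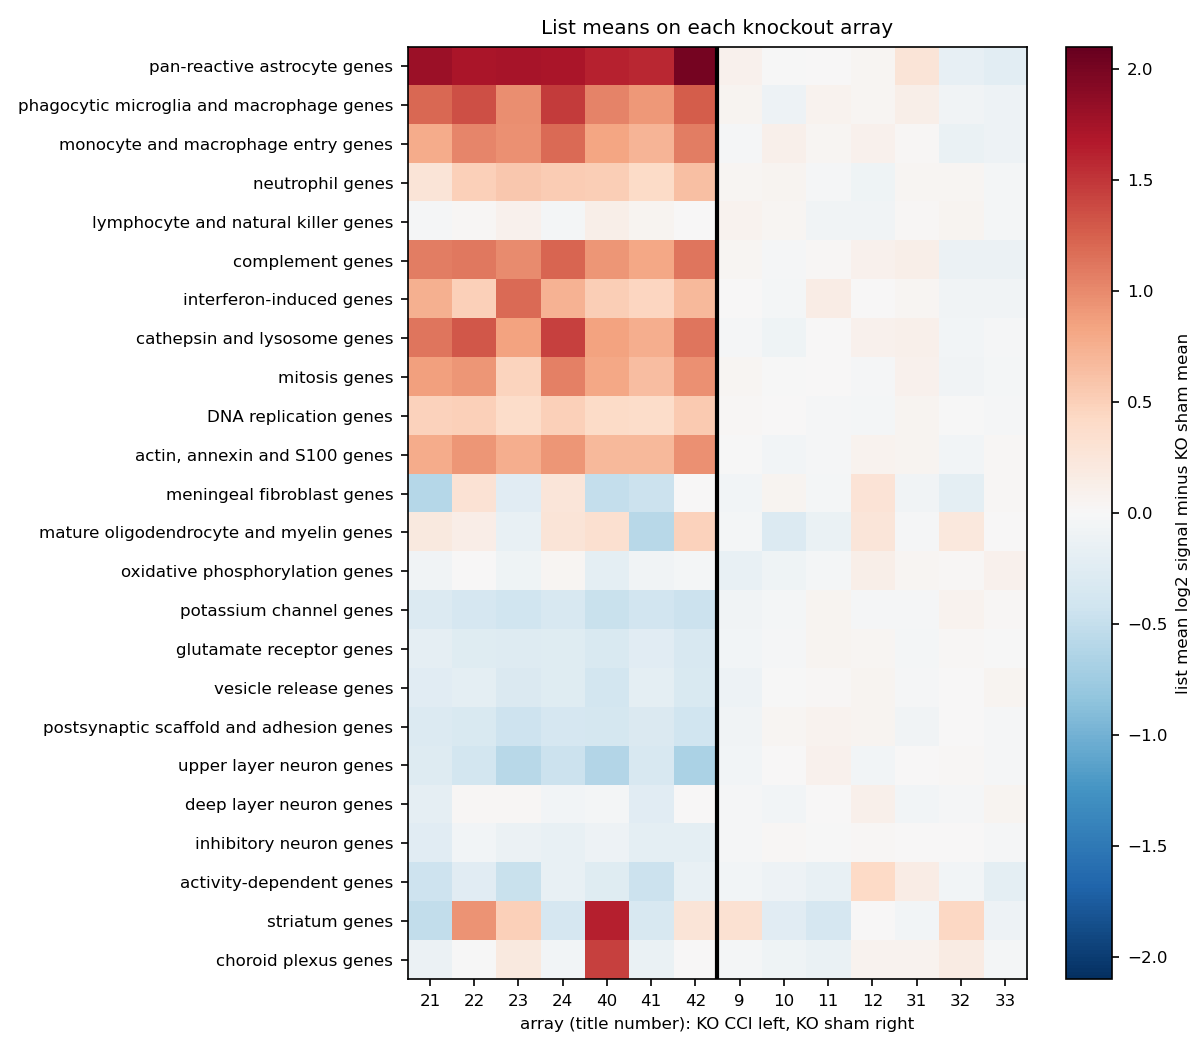
Mean log2 signal of each list's measured genes on every array, drawn as the difference from the mean over KO sham arrays, with the 7 KO CCI arrays left and the 7 KO sham arrays right. Array 23 is the highest injured array for interferon genes and the lowest for mitosis genes, and array 40 is the highest for striatum and choroid plexus genes.

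No transcript cluster was called different between the injury changes of the genotypes, which does not show that the changes were equal. The change in knockout minus that in wild type gave 0 of 65956 calls (0.0%, limma, smallest adjusted p 0.198), with 4097 (6.21%) at an unadjusted p under 0.05. Of the 3821 named genes higher in knockout after injury 3024 were also higher in wild type, where 4232 (13.8%) rose, 79.1% of the knockout list and 71.5% of the wild type list. Of the 2702 lower in knockout 1851 were also lower in wild type, where 2574 (8.38%) fell, 68.5% and 71.9% of the lists. Among the 219 genes that rose at least 2-fold in knockout, a set chosen on the knockout change, the wild type change was the larger in 188, with median changes of 1.38 in knockout and 1.59 in wild type. Of the 196 genes that fell at least 1.5-fold in knockout the wild type change was the larger in 65, with medians of -0.70 in knockout and -0.65 in wild type. Gfap rose by 3.06 in knockout and 4.55 in wild type, a difference of -1.49 (SE 0.44, adjusted p = 0.744). Serpina3n rose by 5.62 and 7.15, a difference of -1.52 (SE 0.48, adjusted p = 0.779). The pan-reactive astrocyte list averaged 9.02 in KO CCI and 9.07 in WT CCI, and 7.28 in KO sham and 7.12 in WT sham. Its mean ranged from 7.06 to 7.56 over the KO sham arrays and from 7.06 to 7.16 over the WT sham arrays. What the sham levels contribute to the differences was not tested. The wild type arrays with CCI also held more striatum or choroid plexus signal on some arrays. The highest choroid plexus mean on a WT sham array was 7.16. Without 7 arrays high in such signal, from both genotypes, the larger change was in wild type for 199 of the 219. The median difference, knockout minus wild type, was then -0.46, against -0.21 with all arrays. For the falls the count was then 99 of 196. The 7 were chosen on their values, and leaving them out made the groups smaller and unequal in size. The move from -0.21 to -0.46 therefore cannot be read as a cleaner estimate, and its cause was not tested. The smallest p belonged to 4930548J01Rik, a noncoding RNA gene, with 0.20 in knockout and -0.23 in wild type (difference 0.43, adjusted p = 0.198), and then to Shisa3 with 0.43 and -0.03 (difference 0.45, adjusted p = 0.634).

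**Figure D5:**
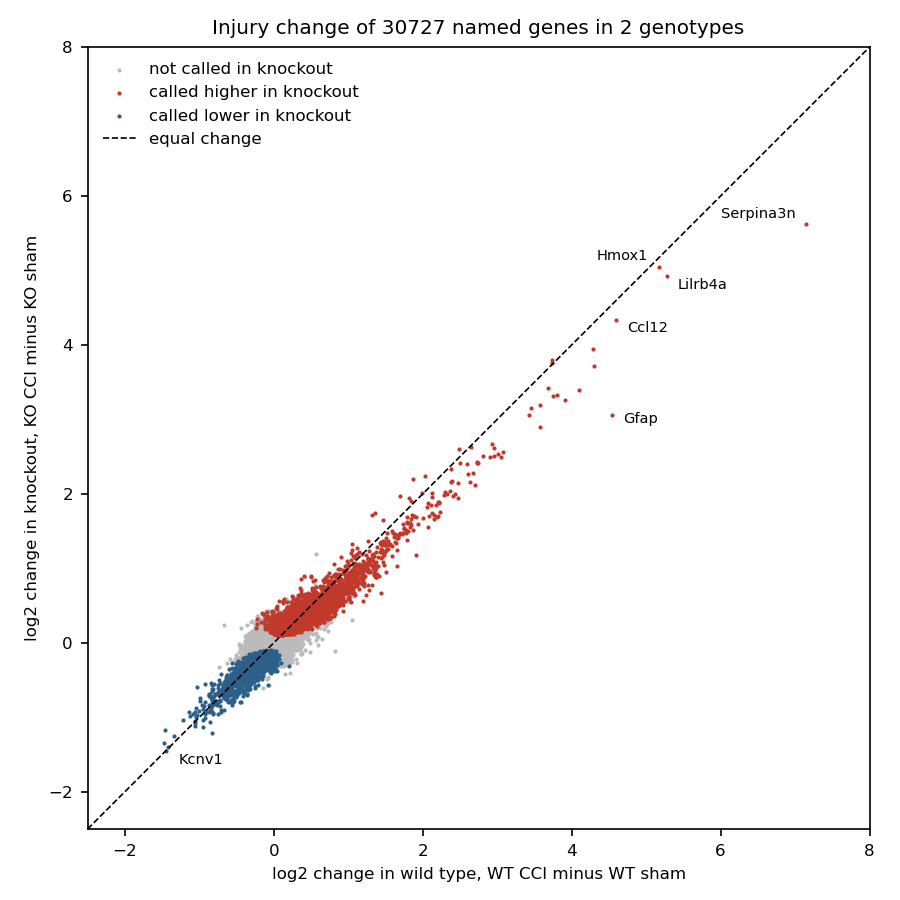
The injury change in knockout (vertical axis, KO CCI minus KO sham, log2) against that in wild type (horizontal axis, WT CCI minus WT sham, log2) for 30727 named genes, with a line of equal change. Most genes with large rises lie below the line, and no gene passed the test of the difference.

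Few differences by sex or run were called in the injury change in knockout. Female minus male gave 0 of 65956 calls (0.0%, limma, smallest adjusted p 0.894), with 3473 (5.27%) at an unadjusted p under 0.05. Run 25 to 42 minus run 1 to 24 gave 13 calls (0.0197%), of which 12 were unnamed rows, 7 of them on chromosome 9, and 1 was a named pseudogene, Gm6758 on chromosome X. Gm6758 changed by 0.44 in the later run and -0.21 in the earlier one (difference 0.64, adjusted p = 0.0474). None of the genes described above was among the 13.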

How the data were processed

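Total RNA of cortical tissue from 28 mice, 7 in each of the 4 groups, was read on Affymetrix MTA 1.0 arrays after biotin labelling of 100 ng, per the labels' protocols. The deposited values are log2 signal, 1 value for each transcript cluster and array; scaling, background correction and normalization were not given in the sources used here, and the values were used as deposited. Control rows (6732 of 72688) were left out and 65956 rows were tested. Gene names came from the platform annotation, updated through RefSeq by gene ID; 31121 rows had 1 gene symbol, 1534 had several and were left unnamed, and the other tested rows listed no gene that could be named.

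limma 3.58.1 in R 4.3.3 fitted 4 group means and sex to all 28 arrays (lmFit, eBayes), with Benjamini-Hochberg adjustment over all 65956 rows and a call at an adjusted p under 0.05. Differences by genotype, sex and run of title numbers were contrasts of the same kind. A gene was represented by its transcript cluster with the highest mean. The genes named are the 15 largest rises and the 15 largest falls outside predicted models and small RNAs, called members of the gene lists with the largest changes, list members chosen for their roles, and Rbm5 with its related and target genes. Members and the 74 lists were chosen with earlier results of these data known. On simulated arrays, changes of 0.25, 0.5 and 1 on the log2 scale in the knockout comparison were called for 38%, 80% and 100% of 50 rows each. The simulated errors were normal and independent, and far fewer rows were changed than the 11017 called in the data. The adjusted p depends on the share of changed rows, so these percentages do not give the power of the real comparison. No pair of arrays held the same values, and the highest correlation between 2 arrays was 0.997. The number of arrays limits the precision. Alternatives covered the sex term, samples, run, scaling, brightness, annotation, variance model, array weights, threshold, striatum and choroid plexus signal, and single arrays.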

Additional observations from a re-analysis of the deposited data

Results flagged for a closer look

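The per-array values given for genes and lists were searched for a single array far from the other 6 of its group. Chance flags about 1 in 20 groups, and 19 of 478 groups of 7 arrays stood out in this way (3.97%), so most single flags carry little weight. No cause was tested.

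On KO CCI array 23, the interferon-induced list averaged 7.26, against 6.53 to 6.83 on the other injured arrays, and the MHC class I list 7.72, against 7.25 to 7.45. Gbp2, a member of the interferon-induced list, was at 9.66 there, against 6.78 to 7.29. KO CCI array 40 had a choroid plexus list mean of 7.08, against 5.50 to 5.84, and Ttr at 15.87, against 7.27 to 9.32. KO CCI array 42 was the highest for Cd44 at 8.28 and for Il4ra at 8.77. KO CCI array 21 was the highest for Kcnh5 at 12.30 and the lowest for S100a8 at 6.53, and array 41 was the highest for Shisa3 at 6.40.

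Among KO sham arrays, array 12 was the highest for Nfkbia at 8.30, against 7.30 to 7.63 on the other 6, and for Gria1 at 14.16, and the lowest for Mpo at 4.19. Array 9 was the highest for Alas2 at 6.29 and the lowest for Prmt8 at 11.08. Array 31 was the highest for Ccl12 at 5.37, array 32 for Ccr2 at 5.05 and array 11 for Rorb at 12.55, and array 33 was the lowest for R3hdm1 at 15.93.

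The injury change also differed between the runs of title numbers within knockout. It did so in 13 transcript clusters by limma's test of the difference, of which Gm6758, with a difference of 0.64, was the 1 named gene.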

How the results depend on the processing

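The count of transcript clusters called in the knockout comparison, 11017, ranged from 9268 to 11115 when single arrays were left out, with 4689 to 5525 higher and 4579 to 5590 lower. The count of list members called, 725, then ranged from 687 to 725, and the difference between genotypes had 0 calls each time. Arrays with title numbers 25 to 42 alone, which are 3 against 3, gave 2567 calls, 1294 higher and 1273 lower, and 320 list members. Title numbers 1 to 24 alone gave 3478 lower. An adjusted p under 0.01 left 7060 calls, 3598 higher and 3462 lower. Restricted to transcript clusters with 1 gene symbol, 3116 were lower, and the difference between genotypes had 1 call, 4930548J01Rik, at an adjusted p of 0.0469. The difference by run within knockout had 1 call in place of 13 when only the 14 knockout arrays were fitted. Of these counts under alternatives, 127 of 138 lay within 1.5 times the value reported, and no gene named in the text changed sign with a call. The 138 include counts of 0 that stayed 0 and many fits without a single array, which share most of their data. This share is therefore not a measure of robustness to the settings that differ most. Of the 184 named genes that were called, 8 lost the call without some single array: Cnr1, Fas, Mir376b, Nr4a1, Ogn, Pltp, Rgs5 and Siglech. Calls of named genes were also lost under other settings: 51 with title numbers 25 to 42 alone, 23 with 1 to 24 alone, 10 at an adjusted p under 0.01, 7 with quantile normalization, 5 with the knockout arrays alone, 4 without the 7 arrays high in striatum or choroid plexus signal, 2 each with no sex term and with centring, and 1 with array weights. Centring moved the split to 4021 higher and 7576 lower, and quantile normalization gave 5236 and 5350; the cause was not tested. No paired analysis was possible because title numbers are not shared between groups. Whether dim probes lie above background cannot be read from the deposited values, so folds of genes that are dim in sham are uncertain in size.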
